A study of Mus musculus with 11 samples.

Results

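The genes described here are the core of transforming growth factor β (TGF-β) signalling in mouse ovarian granulosa cells: the ligand genes Tgfb1, Tgfb2 and Tgfb3, the receptor genes Tgfbr1 and Tgfbr2, and the SMAD genes Smad2, Smad3, Smad4 and Smad7. They were chosen by name, through Entrez gene IDs, and all 9 were found among 24809 gene IDs with RNA counts and among 24541 with counts of H3K4me3, a histone mark of active promoters. Granulosa cells, the somatic cells around the oocyte, came from C57BL/6 mice 48 h after equine chorionic gonadotropin (eCG, described in the labels as FSH) or from untreated mice (0 h). RNA was measured in 3 libraries per group from cells taken by follicular puncture, with an age of postnatal day 21 labelled in both groups, and H3K4me3 in 2 libraries per group, with no age labelled. The samples used here hold no untreated group at 48 h, so the effect of eCG and that of elapsed time cannot be told apart. How many mice stand behind a library is not given in the sources used here.

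TGF-β ligands are secreted in a latent form and bind the type II receptor, encoded by Tgfbr2, which then activates the type I receptor, encoded by Tgfbr1. The type I receptor phosphorylates SMAD2 and SMAD3, which enter the nucleus with SMAD4, and SMAD7 is an inhibitor that acts at the type I receptor. In granulosa cells SMAD2 and SMAD3 also carry signals of activin, which uses other receptors, and of the oocyte factor GDF9.

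RefSeq promoter windows (build GRCm38.p6) are described here for 5 of the 9 genes. Windows of the other genes were not examined, which does not mean that none exists. The Tgfbr1 and Tgfb1 windows are shown because H3K4me3, a promoter mark, rose at these genes, that of Smad3 because its RNA fell, and that of Tgfb2 for its different letters; the Tgfbr2 window is described without its sequence. Each line gives the 250 bases before an annotated transcript start, 5′ to 3′ on the gene's strand. Capitals mark motif matches on either strand. The GC box was searched as GGGCGG, and the CCAAT box by the letters of its name. The letters TATAAA stood for the TATA box, and the core of the cAMP response element was searched as TGACG. The SMAD box was CAGAC, and for the E-box the form CACGTG was used. No match overlaps another in these windows.
Tgfbr1, chr4:47352972-47353221, plus strand: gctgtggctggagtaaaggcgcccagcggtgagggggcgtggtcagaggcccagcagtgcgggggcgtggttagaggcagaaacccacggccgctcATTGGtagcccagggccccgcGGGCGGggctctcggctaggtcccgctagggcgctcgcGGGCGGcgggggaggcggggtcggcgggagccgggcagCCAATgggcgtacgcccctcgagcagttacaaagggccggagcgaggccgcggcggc
Tgfb1, chr7:25686752-25687001, plus strand: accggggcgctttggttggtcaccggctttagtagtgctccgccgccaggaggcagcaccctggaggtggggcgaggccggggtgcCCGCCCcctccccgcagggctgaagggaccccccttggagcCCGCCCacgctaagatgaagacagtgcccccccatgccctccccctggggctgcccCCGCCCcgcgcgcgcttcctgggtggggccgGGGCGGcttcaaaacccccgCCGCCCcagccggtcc
Smad3, chr9:63757995-63758244, minus strand: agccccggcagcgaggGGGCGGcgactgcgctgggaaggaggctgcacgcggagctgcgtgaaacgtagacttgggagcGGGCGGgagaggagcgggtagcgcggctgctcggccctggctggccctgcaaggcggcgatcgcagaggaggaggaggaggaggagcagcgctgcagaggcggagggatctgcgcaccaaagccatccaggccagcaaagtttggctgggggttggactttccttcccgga
Tgfb2, chr1:186705990-186706239, minus strand: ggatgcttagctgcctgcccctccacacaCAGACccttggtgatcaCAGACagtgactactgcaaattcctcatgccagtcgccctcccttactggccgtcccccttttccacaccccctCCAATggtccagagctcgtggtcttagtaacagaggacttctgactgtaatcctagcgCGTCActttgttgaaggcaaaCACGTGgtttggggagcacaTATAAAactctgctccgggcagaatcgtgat

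The Tgfbr1, Tgfb1 and Smad3 windows are rich in GC (74.8%, 75.2% and 69.2%) and hold 29, 21 and 22 CpG dinucleotides, against a median of 6 over all 32851 windows. They hold 2, 5 and 2 GC boxes, a motif found in 32.7% of all windows, and none of them holds TATAAA, found in 12.4%. The Tgfb2 window belongs to an annotated start inside its gene, which spans 186622787 to 186709697. The windows compared with it here abut the upstream end of their genes. The Tgfb2 window differs in its letters: it holds 8 CpG dinucleotides and no GC box. A TATA box lies 31 bases before the start, an E-box 51 bases and a core of the cAMP response element 72 bases before it. E-boxes of this form occur in 6.02% of all windows and cores of the cAMP response element in 17.8%. The Tgfb2 window also holds 2 SMAD boxes (42.2% of all windows), and the Tgfbr1 window 2 CCAAT boxes (33.8%). The Tgfbr2 window has a GC content of 58.4%, 12 CpG dinucleotides, no GC box, 2 CCAAT boxes and 1 SMAD box. These matches describe letters and not bound sites.

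The RNA libraries held 12013849 to 26343971 counts and the H3K4me3 libraries 11989769 to 17968033. Granulosa markers were plentiful, with a summed level of 43597 to 46264 CPM (counts relative to library size, scaled by TMM) at 48 h and 20966 to 25818 CPM at 0 h, and 8 of 12 rose while 3 fell. Cyp19a1, the aromatase gene, and Fst rose by 1.98 and 1.34 on the log2 scale, and Amh and Wt1 fell by 1.38 and 1.07 (Amh in 9 of 12 alternatives). One RNA library stood apart, 48 h replicate 1: 12 endothelial markers summed to 684 CPM there, 216 and 268 CPM in 48 h replicates 2 and 3, and 118 to 123 CPM at 0 h, and 10 of the 12 rose, the most Flt1 (log2 2.50) and Pecam1 (2.05). Without 0 h replicate 1, 2 or 3, the endothelial markers that rose numbered 6, 6 and 7. In H3K4me3, edgeR called 0 of the 12 endothelial markers (0 at an unadjusted p under 0.05 and 0 by DESeq2). Summed levels of 8 smooth muscle and pericyte markers were 290 CPM in that library, 109 and 137 CPM in the other 48 h libraries and 137 to 149 CPM at 0 h, and Notch3 and Rgs5 rose (log2 1.51 and 1.27), but neither was called when any 0 h library was left out. For 8 theca and stroma markers they were 597 to 1777 CPM at 48 h, highest in replicate 1, and 859 to 1381 CPM at 0 h (3 fell, the most Gli1 and Ptch1, by 1.52 and 0.56). That count was 5, 1 and 0 without 48 h replicate 1, 2 or 3, and 3, 1 and 1 without 0 h replicate 1, 2 or 3. Summed levels of 10 oocyte markers were 36.8 to 96.1 CPM at 48 h, again highest in replicate 1, and 89.8 to 102 CPM at 0 h (3 of 9 tested fell, among them Bmp15 and Gdf9). That count was 9, 0 and 0 without 48 h replicate 1, 2 or 3, and 1, 0 and 0 without 0 h replicate 1, 2 or 3. Summed levels of 10 immune markers were 207 to 346 CPM at 48 h and 248 to 425 CPM at 0 h, with 0 called by edgeR (also 0 at an unadjusted p under 0.05 and 0 by DESeq2). For 7 red-cell genes they were 164 to 685 CPM at 48 h and 68.5 to 129 CPM at 0 h, with 4 haemoglobin genes listed at 0 in every library and all 3 tested genes higher at 48 h, among them Slc4a1 and Alas2 (log2 2.69 and 2.25). In bulk RNA, fewer cells of a type and less RNA per cell cannot be told apart.

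At 48 h the RNA of the type I receptor gene Tgfbr1 was 1.48-fold higher than at 0 h, that of the inhibitor gene Smad7 fell to 0.420 of its 0 h level, and that of Smad3 fell to 0.790. The other 6 genes did not pass the test. Thus 1 of 9 genes rose and 2 fell, at an adjusted p under 0.05 (edgeR quasi-likelihood test, adjusted over 14401 genes by Benjamini-Hochberg). Of all genes tested, 31.8% were called, 16.0% higher and 15.8% lower at 48 h, so 3 calls among 9 genes lie near the background. Without 48 h replicate 1, 1 of the 9 genes rose and 1 fell. Groups did not overlap for 4 of 9 genes, against 47.9% of all genes (22.1% higher, 25.8% lower). The median log2 fold change was -0.04 over the 9 genes and -0.03 over all genes.

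**Figure D1:**
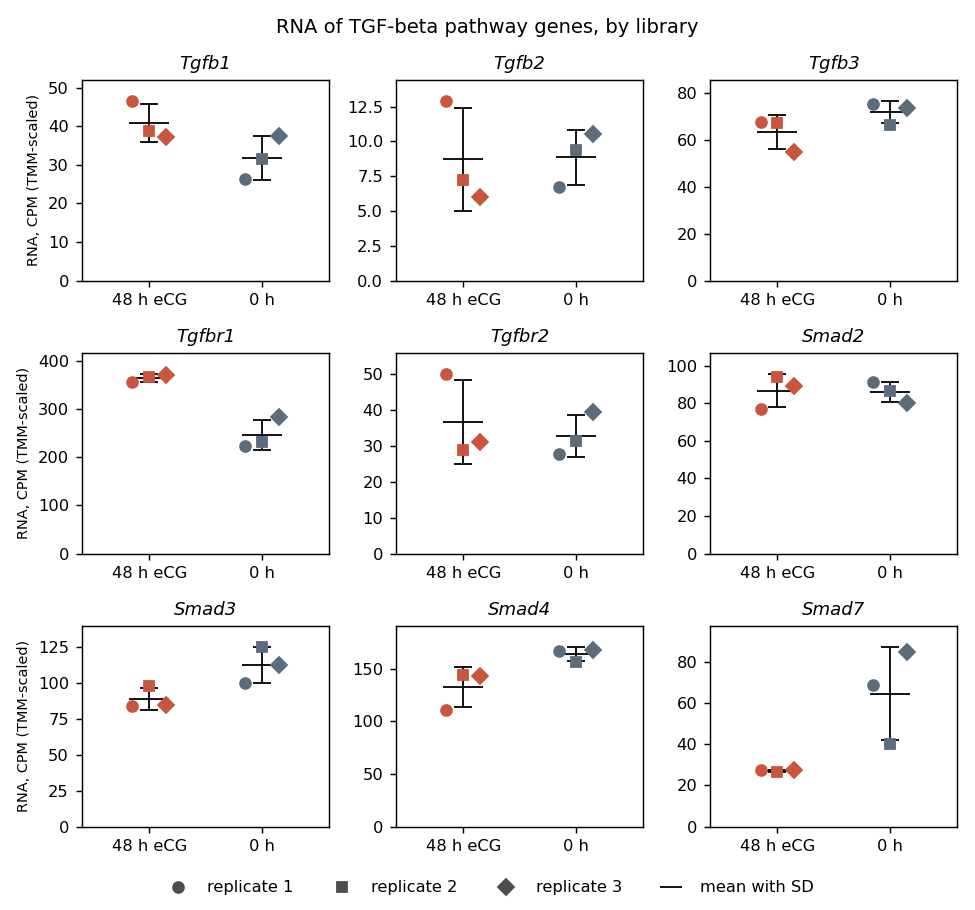
RNA level (vertical axis, CPM scaled by TMM) of the 9 genes in each library at 48 h after eCG and at 0 h; symbols are replicates and black marks the mean with SD (n = 3 per group). Tgfbr1 lies at 356 to 372 CPM at 48 h, above all 0 h libraries, and Smad7 at 26.5 to 27.5 CPM, below all of them.

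Among the ligand genes, Tgfb1 (gene ID 21803; chromosome 7, 25687002 to 25705077) had 46.5, 38.6 and 37.2 CPM in 48 h replicates 1 to 3, against 26.2, 31.6 and 37.5 CPM in 0 h replicates 1 to 3. The groups overlap, with the lowest 48 h library just below the highest 0 h library. The log2 fold change of 0.36 ± 0.14 (SE; 95% interval 0.03 to 0.68) did not pass after adjustment (adjusted p = 0.0879). It passed without 0 h replicate 3 (0.0420), and over the 12 alternatives its adjusted p was 0.0420 to 0.330.

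Tgfb2 (gene ID 21808; chromosome 1, 186622787 to 186709697), the ligand with fewest counts, had 12.9, 7.20 and 6.01 CPM at 48 h, against 6.69, 9.39 and 10.5 CPM at 0 h. Its highest value was in 48 h replicate 1 and its lowest in 48 h replicate 3, so the 48 h group spans the 0 h group. The log2 fold change was -0.04 ± 0.29 (95% interval -0.70 to 0.63, adjusted p = 0.942) and became -0.42 without 48 h replicate 1 (adjusted p = 0.178). The counts behind these values were 168, 180 and 69 at 48 h, against 104, 190 and 199 at 0 h.

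Tgfb3 (gene ID 21809; chromosome 12, 86056743 to 86079041) had 67.8, 67.2 and 54.8 CPM at 48 h, against 75.4, 66.5 and 73.5 CPM at 0 h. Its groups overlap, and the log2 fold change of -0.18 ± 0.10 (95% interval -0.41 to 0.05) did not pass (adjusted p = 0.213). Of the 12 alternatives, scaling by library size alone called it (log2 -0.35, adjusted p = 0.0192), where the median of all genes lay at -0.20.

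The receptor genes differed from each other in how steady they were. Tgfbr1 (gene ID 21812; chromosome 4, 47353222 to 47414926) had 356, 366 and 372 CPM at 48 h, against 224, 232 and 283 CPM at 0 h. Every 48 h library lies above every 0 h library. The mean was 365 ± 7.91 CPM at 48 h and 246 ± 32.0 CPM at 0 h (SD, n = 3 each), a 1.48-fold rise (log2 0.57 ± 0.11, adjusted p = 0.00556). Tgfbr1 was called higher in all 12 alternatives, with an adjusted p of at most 0.0261.

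Tgfbr2 (gene ID 21813; chromosome 9, 116087695 to 116175363) had 50.1, 28.9 and 31.1 CPM at 48 h, against 27.8, 31.4 and 39.4 CPM at 0 h. The single high library is 48 h replicate 1, and the other 48 h libraries lie within the 0 h range. The log2 fold change was 0.15 ± 0.21 (95% interval -0.33 to 0.64, adjusted p = 0.620), and -0.14 without 48 h replicate 1 (adjusted p = 0.480). Tgfbr2, Tgfb2 and Tgfb1 all had their highest value in 48 h replicate 1, the library in which endothelial markers summed to 684 CPM, with 10 of 12 of them higher at 48 h (6 or 7 when a 0 h library was left out) and none at 0 in all libraries. In that library the smooth muscle and pericyte sum (290 CPM) and the theca and stroma sum (1777 CPM) were also the highest. The granulosa, immune, red-cell and oocyte sums were highest in other libraries. At 0 h the endothelial sum was 118 to 123 CPM, while Tgfbr2 ran from 27.8 to 39.4 CPM and Tgfb1 from 26.2 to 37.5 CPM. The part of other cell types in these values was not tested.

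**Figure D2:**
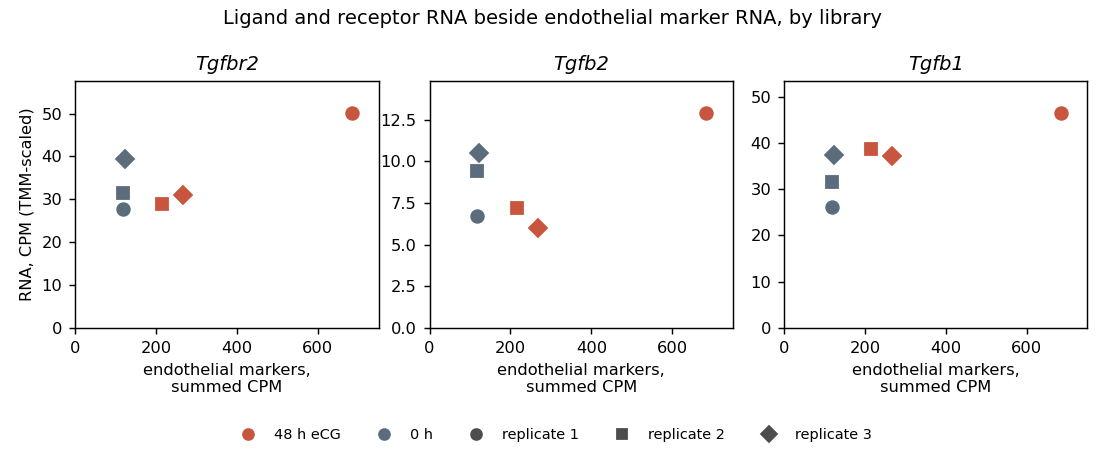
RNA of Tgfbr2, Tgfb2 and Tgfb1 (vertical axes, CPM) against the summed RNA of 12 endothelial markers (horizontal axes, CPM), with 1 point per library and the group in colour. The point at 684 CPM of endothelial markers is 48 h replicate 1, with 50.1 CPM of Tgfbr2, 12.9 CPM of Tgfb2 and 46.5 CPM of Tgfb1, the highest value in each panel.

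Of the receptor-activated SMAD genes, Smad2 (gene ID 17126; chromosome 18, 76241090 to 76311748) had 77.1, 94.1 and 89.2 CPM at 48 h, against 91.2, 86.6 and 80.4 CPM at 0 h. The groups overlap over nearly their whole range. Its log2 fold change was 0.01 ± 0.10, with a 95% interval of -0.21 to 0.23 (adjusted p = 0.932), and no alternative called it.

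Smad3 (gene ID 17127; chromosome 9, 63646766 to 63757994) had 84.1, 97.7 and 84.4 CPM at 48 h, against 99.7, 125 and 112 CPM at 0 h. The groups do not overlap, but the highest 48 h library lies close to the lowest 0 h library. Smad3 averaged 88.7 ± 7.74 CPM at 48 h and 112 ± 12.6 CPM at 0 h (SD, n = 3 each), a fall of small size (log2 -0.34 ± 0.11, adjusted p = 0.0392). The call held in 7 of 12 alternatives; it was lost with DESeq2 size factors (0.0506) and without 48 h replicate 1 (0.0755), 48 h replicate 3 (0.152), 0 h replicate 2 (0.159) or 0 h replicate 3 (0.115).

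Smad4 (gene ID 17128; chromosome 18, 73634790 to 73703791), whose product partners the activated SMADs, had 111, 145 and 144 CPM at 48 h, against 167, 156 and 168 CPM at 0 h. All 48 h libraries lie below all 0 h libraries, and 48 h replicate 1 is the lowest. The log2 fold change of -0.30 ± 0.11 (95% interval -0.56 to -0.04) did not pass after adjustment (adjusted p = 0.0732). Smad4 was called with library size as the only scaling (log2 -0.47, adjusted p = 0.0143) and with a minimum mean of 5 CPM (-0.31, adjusted p = 0.0459).

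Smad7 (gene ID 17131; chromosome 18, 75367365 to 75395935) showed the largest difference of the 9 genes. It had 27.5, 26.5 and 27.4 CPM at 48 h, against 69.1, 40.2 and 84.9 CPM at 0 h. The 48 h libraries are nearly alike, whereas the 0 h libraries spread widely, with replicate 2 the lowest. Smad7 averaged 27.2 ± 0.553 CPM at 48 h and 64.7 ± 22.7 CPM at 0 h (SD, n = 3 each), a fall to 0.420 of the 0 h level (log2 -1.25 ± 0.23, adjusted p = 0.00467). It was called lower in all 12 alternatives, with log2 fold changes of -1.49 (without 0 h replicate 2) to -0.995 (without 0 h replicate 3).

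Ratios between 2 of these genes within a library do not depend on how libraries were scaled. They do depend on transcript length, so only their differences between groups are compared. The log2 ratio of Tgfb3 to Tgfb1 was 0.54, 0.80 and 0.56 at 48 h, against 1.52, 1.07 and 0.97 at 0 h. These groups do not overlap, and their means differ by -0.56 (exact permutation test, two-sided, p = 0.1, the smallest that 3 against 3 allows; adjusted p = 0.233 over 7 ratios). The ratios of Smad3 to Smad2 and of Smad4 to Smad2 also did not overlap between groups, with differences of -0.35 and -0.32 (each exact permutation p = 0.1, adjusted p = 0.233).

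The remaining 4 ratios overlapped between groups. Tgfb2 to Tgfb1 differed by -0.45 (exact permutation p = 0.2), Tgfb2 to Tgfb3 by 0.11 (p = 0.8) and Tgfbr1 to Tgfbr2 by 0.44 (p = 0.4). The ratio of Smad7 to Smad3 differed by -0.85 (exact permutation p = 0.3), and 0 h replicate 2, at -1.63, lay among the 48 h libraries, at -1.61, -1.88 and -1.62. The other 0 h libraries stood at -0.53 and -0.40.

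Genes whose level followed that of a member most closely were sought by Pearson's r of log2(CPM + 1) over the 6 RNA libraries, among 11284 other genes that averaged 5 CPM or more. With 6 points in 2 groups and so many genes compared, a high r is a description only. For Smad7 they were Nr4a1 (r = 0.994), an orphan nuclear receptor and immediate early gene, and Arhgap22 (0.993). Nr4a1 had 27.5, 23.6 and 23.3 CPM at 48 h, against 118, 39.7 and 166 CPM at 0 h, with 0 h replicate 2 lowest of its group as for Smad7. For Tgfbr1 they were Aph1b (0.996), a γ-secretase subunit, and Clstn2 (0.994), and for Tgfbr2 Grina (0.996) and Tmem63a (0.994). The closest genes were Slc6a6 (0.993), the taurine transporter, and the nuclear receptor Rora (0.992) for Tgfb1, Plxna4 (0.992) and Tmem94 (0.987) for Tgfb2, and Dus2 (0.981) and Paox (0.978) for Tgfb3. For the other SMAD genes they were Cpped1 (0.996) and Incenp (0.994) for Smad2, Rufy1 (0.988) and Phf21a (0.988) for Smad3, and Tesk1 (0.998) and Shprh (0.997) for Smad4.

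H3K4me3 was higher at 48 h at Tgfbr1 and at Tgfb1, and at neither Smad7 nor Smad3 did the mark pass the test. All 9 genes had counts of the mark in all 4 libraries, at 44.6 CPM or more. A background limit of 17.5 CPM was the 95th percentile of mean CPM over 5129 gene IDs with no RNA count. All values lay above it, but the input library was not used for this limit. By edgeR 2 of 9 genes rose and 0 fell (1 fell at an unadjusted p under 0.05 and 0 by DESeq2, which called 1 rise). Of 24476 genes tested, 8.42% were called, 6.35% higher and 2.08% lower. Groups did not overlap for 6 of 9 genes, against 49.3% of all genes (26.5% higher, 22.8% lower). The median log2 fold change was 0.06 over the 9 genes and -0.0014 over all genes. With 2 libraries per group, errors and p-values rest on variation shared across genes, and the window counted per gene is not given in the sources used here.

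**Figure D3:**
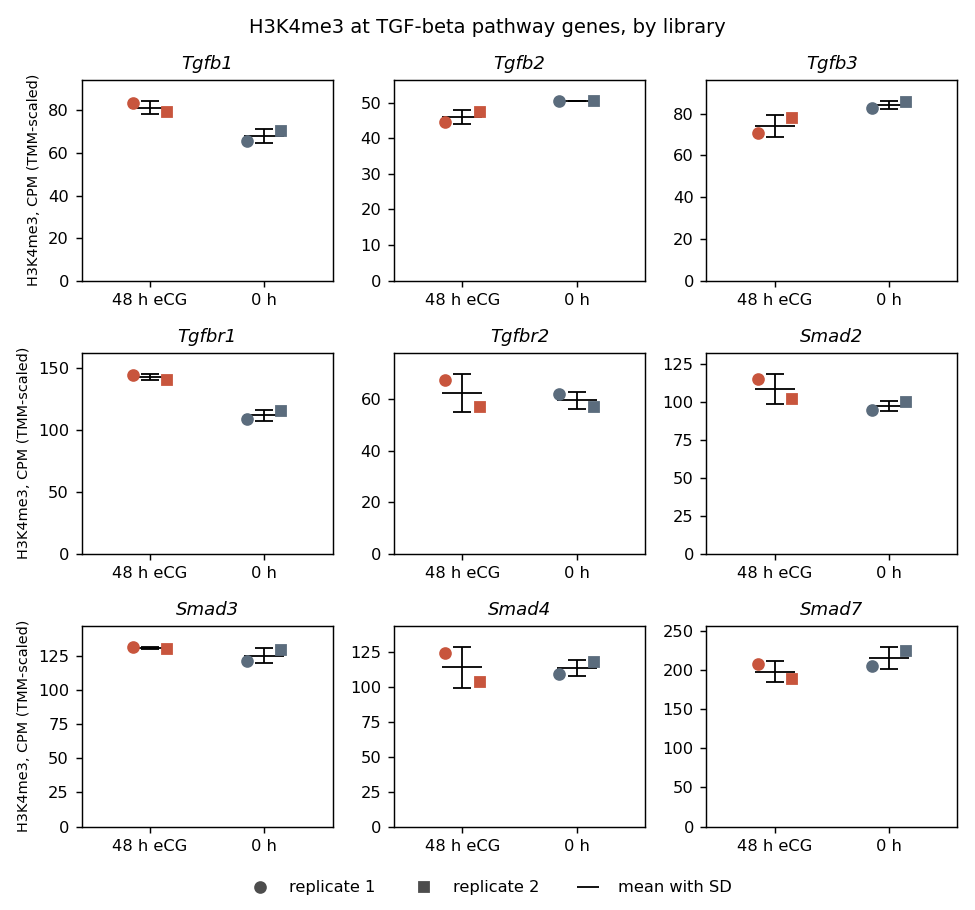
H3K4me3 level (vertical axis, CPM scaled by TMM) at the 9 genes in each library at 48 h after eCG and at 0 h; symbols are replicates and black marks the mean with SD (n = 2 per group). Tgfbr1 lies at 144 and 141 CPM at 48 h, above 109 and 115 CPM at 0 h, while the groups of Tgfbr2, Smad4 and Smad7 overlap.

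At Tgfbr1 the H3K4me3 level was 144 and 141 CPM at 48 h, against 109 and 115 CPM at 0 h. The mark was 1.28-fold higher (log2 0.35 ± 0.07, adjusted p = 4.21e-04) and was called in 9 of 10 alternatives, all but the fit without 0 h replicate 1 (log2 0.29, adjusted p = 0.136). The CpG-rich promoter window of Tgfbr1 is printed above; a second annotated start of Tgfbr1, with 3 CpG dinucleotides in its window (chr4:47385966-47386215), cannot be told apart from it in a count per gene.

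At Tgfb1 the mark stood at 83.5 and 79.2 CPM at 48 h, against 65.7 and 70.4 CPM at 0 h. The rise was 1.20-fold (log2 0.26 ± 0.07, adjusted p = 0.0151). It was called in 6 of 10 alternatives and lost with DESeq2 (0.0994), with the replicate number as a block (0.0570), and without 48 h replicate 1 (0.127) or 0 h replicate 1 (0.501). B9d2 lies within 5000 bp of Tgfb1, and whether its mark enters the count was not tested.

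At the other ligand genes both groups stood apart without a call. Tgfb2 had 44.6 and 47.4 CPM at 48 h, against 50.5 and 50.5 CPM at 0 h (log2 -0.13 ± 0.08, 95% interval -0.28 to 0.02, adjusted p = 0.335). Tgfb3 had 70.6 and 77.9 CPM at 48 h, against 83.0 and 85.4 CPM at 0 h (log2 -0.18 ± 0.07, 95% interval -0.33 to -0.03, adjusted p = 0.121). The Tgfb3 difference passed in 3 of 10 alternatives: library size alone (0.0224), a minimum mean of 5 CPM (0.0200) and without 48 h replicate 2 (0.0299).

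Tgfbr2, the partner receptor, had 67.6 and 57.1 CPM of H3K4me3 at 48 h, against 62.0 and 57.2 CPM at 0 h. These groups overlap, and the log2 difference was 0.06 ± 0.08 (95% interval -0.10 to 0.22, adjusted p = 0.725). Smad2 had 115 and 102 CPM at 48 h, against 94.9 and 99.8 CPM at 0 h (log2 0.16 ± 0.07, adjusted p = 0.198), a difference called without 48 h replicate 2 (0.0387).

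Smad3 carried 132 and 131 CPM at 48 h, against 122 and 130 CPM at 0 h (log2 0.06 ± 0.07, 95% interval -0.08 to 0.20, adjusted p = 0.668). Smad3 libraries lie close together, within 122 to 132 CPM, and its groups do not overlap. Smad4 carried 124 and 104 CPM at 48 h, against 110 and 118 CPM at 0 h (log2 0.0052 ± 0.07, adjusted p = 0.981). Smad7, with the strongest RNA difference, carried 207 and 189 CPM at 48 h, against 205 and 225 CPM at 0 h. Its mark overlapped between groups, with a log2 difference of -0.12 ± 0.07 (95% interval -0.26 to 0.02, adjusted p = 0.356), called only with library size as the scaling (0.0395).

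**Figure D4:**
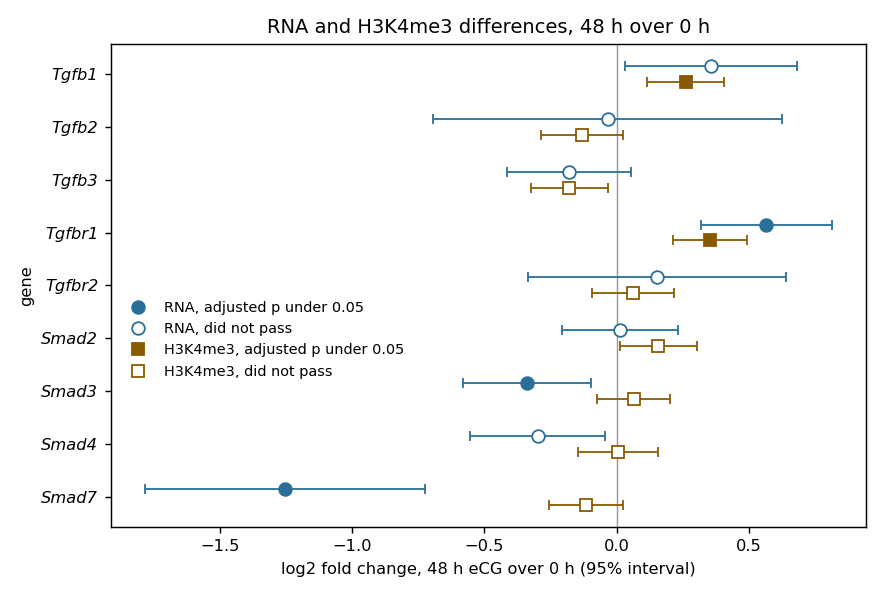
Log2 fold change of RNA (circles) and H3K4me3 (squares) at 48 h over 0 h for the 9 genes, with 95% intervals; filled symbols have an adjusted p under 0.05. Tgfbr1 is filled in both assays (0.57 in RNA and 0.35 in H3K4me3), Tgfb1 in H3K4me3, and Smad3 and Smad7 in RNA.

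Around these genes, 6 of 21 tested genes that hold latent TGF-β or release it rose and 1 fell, a share near the 31.8% called over all genes. The rises numbered 3, 3 and 2 without 0 h replicate 1, 2 or 3, and those of Ltbp1 and Itgb3 were called in all 12 alternatives. Ltbp1, which binds latent TGF-β in the matrix, had 1071, 799 and 918 CPM at 48 h, against 341, 340 and 317 CPM at 0 h, groups far apart (log2 1.48 ± 0.13, adjusted p = 2.21e-04). Itgb3, an integrin subunit, averaged 123 ± 15.4 CPM at 48 h and 48.4 ± 6.29 CPM at 0 h (SD, n = 3 each; log2 1.34 ± 0.13, adjusted p = 2.96e-04). Thbs1, thrombospondin, an activator of the latent form, averaged 2024 ± 216 CPM at 48 h and 3034 ± 264 CPM at 0 h (log2 -0.58 ± 0.12, adjusted p = 0.00855; not called without 48 h replicate 3, adjusted p = 0.0549). The other 14 genes did not pass, and the median log2 fold change of the 21 was 0.21. H3K4me3 was higher at Ltbp1, with 97.9 ± 6.54 CPM at 48 h and 71.8 ± 0.797 CPM at 0 h (SD, n = 2 each, adjusted p = 1.68e-05). It was lower at Thbs1, with 124 ± 3.20 CPM at 48 h and 181 ± 4.41 CPM at 0 h (adjusted p = 6.52e-08). Of the 22 genes of that list the mark was higher at 2 and lower at 1, and 19 missed the threshold. Besides Ltbp1 it was higher at Furin, a call lost with DESeq2 (adjusted p = 0.588), among others. It was also lost with library size alone (edgeR, 0.168) and with a minimum mean of 5 CPM (edgeR, 0.130). Without 48 h replicate 1 the log2 difference at Furin was 0.03.

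Among 15 co-receptor and receptor regulator genes there were 2 rises, 2 falls and 11 genes that missed the threshold. The endoglin gene Eng and the type I receptor gene Acvrl1, both known from endothelium, rose by 1.77 and 0.99 on the log2 scale, the second with adjusted p-values of 0.0719 to 0.0831 when any 0 h library was left out. Eng had 114, 39.9 and 50.4 CPM at 48 h, against 17.5, 20.4 and 21.5 CPM at 0 h, highest in the library with most endothelial marker RNA; the part of endothelial cells was not tested. Zfyve9, which presents SMADs to the receptor, fell by 0.42 (adjusted p = 0.0145) and the deubiquitinase gene Usp11 by 0.43 (adjusted p = 0.00448). The co-receptor gene Tgfbr3, named after its values were seen, did not pass (log2 -0.04, adjusted p = 0.896), but was called lower without 48 h replicate 1 (log2 -0.34, adjusted p = 0.00907). Without that library, 4 genes of this list rose and 3 fell, and 1 rose without 0 h replicate 2 or 3. Of the activin receptor genes, which share SMAD2 and SMAD3, Acvr2b fell to 35.5 ± 5.55 CPM at 48 h, against 52.5 ± 1.40 CPM at 0 h (adjusted p = 0.00667), Acvr1c, named although it is below 5 CPM, rose (3.05 ± 0.297 CPM at 48 h and 1.22 ± 0.130 CPM at 0 h, adjusted p = 0.00538), and Acvr1b and Acvr2a did not pass. H3K4me3 fell at Cav1, at 1 of 15 receptor regulators, but the call was lost in 5 of 10 alternatives, with DESeq2 (0.143), with the replicate number as a block (0.0627), without 48 h replicate 1 (0.107) and without either 0 h library (0.372 for replicate 1 and 0.113 for replicate 2). By edgeR 0 of 4 activin receptor genes were called (2 rose at an unadjusted p under 0.05, and 0 were called by DESeq2).

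Of 18 tested nuclear partners of SMADs, 5 were lower and 1 was higher, and 12 missed the threshold. When scaled by library size alone, 12 were lower. The corepressor gene Ski had 126, 122 and 122 CPM at 48 h, against 196, 181 and 184 CPM at 0 h, groups that do not overlap (log2 -0.60 ± 0.08, adjusted p = 0.00110). Tgfb1i1, a coregulator first found as TGF-β1-induced, fell to 56.4 ± 5.92 CPM at 48 h, against 111 ± 13.9 CPM at 0 h (log2 -0.97 ± 0.12, adjusted p = 7.98e-04). H3K4me3 was lower at both, by 0.43 at Ski (adjusted p = 3.71e-05) and 0.39 at Tgfb1i1 (adjusted p = 1.26e-04), and rose at 6 other genes of this list, the most at Ctdsp1 (log2 0.33; not called without 48 h replicate 1 or 0 h replicate 1). Of these 6 rises, DESeq2 called 2, and 0 were called by edgeR without 48 h replicate 1. The one RNA rise, of the SMAD-binding repressor gene Zeb2 (log2 0.33, adjusted p = 0.0360), was called in 6 of 12 alternatives (adjusted p = 0.285 when scaled by library size alone).

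The non-SMAD branch had 2 rises and 2 falls among 11 genes, with 7 not passing. Map3k7, which encodes the kinase TAK1, rose by 0.51 on the log2 scale, and Map2k6 by 0.75, while Tab1, which encodes a partner of TAK1, fell by 0.32 and the ubiquitin ligase gene Traf6 by 0.36, with adjusted p-values of 0.0128 to 0.0223. Each of the 4 calls was lost in at least 2 of 12 alternatives, and both falls without 0 h replicate 2 or 3. H3K4me3 rose at 3 of these genes, the most at Mapk14 (log2 0.27), and none of the 3 rises was called by DESeq2 or by edgeR without 48 h replicate 1. By edgeR the mark fell at 0 of the 11 (0 at an unadjusted p under 0.05 and 0 by DESeq2).

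Genes known from other cells as TGF-β targets changed in both directions: 5 of 26 were higher, 2 were lower and 19 missed the threshold, with a median log2 fold change of 0.15. Postn and Tgfbi, matrix proteins, rose by 1.79 and 1.64, both highest in 48 h replicate 1. Postn had 42.1 CPM there, 8.40 and 13.8 CPM in 48 h replicates 2 and 3, and 4.99 to 7.07 CPM at 0 h, and it was not called when any 0 h library was left out (adjusted p = 0.0771 to 0.0935). Myc fell to 36.5 ± 10.1 CPM at 48 h, against 81.6 ± 22.2 CPM at 0 h (adjusted p = 0.00609), and the transcription factor gene Snai2 to 8.53 ± 0.210 CPM, against 13.6 ± 0.655 CPM (adjusted p = 0.00432). Id1, an inhibitor of helix-loop-helix factors, had the largest H3K4me3 rise of the list (log2 0.61, adjusted p = 1.19e-08), and its RNA rose as well (0.90). Acta2, smooth muscle actin, had the largest H3K4me3 fall (-0.53, adjusted p = 0.0162), not called by DESeq2 (0.0956), with the replicate number as a block (0.0893), or without 0 h replicate 1 (0.433) or 0 h replicate 2 (0.0515). Ccn2, a matricellular protein gene named after its values were seen, did not pass in RNA (log2 0.31 ± 0.23). It was called higher without 0 h replicate 1 (0.66, adjusted p = 0.00984). H3K4me3 at Ccn2 was called lower, a call not kept without 0 h replicate 1 (log2 -0.28) or 0 h replicate 2 (-0.29). Ccn1, also named after its values were seen, did not pass in RNA. It was called lower by DESeq2 (log2 -0.55, adjusted p = 0.0335) and without 48 h replicate 1 (-0.86, adjusted p = 0.00166). H3K4me3 at Ccn1 was called lower as well (log2 -0.30 without 0 h replicate 2, where the call was lost). Of the 26 genes, H3K4me3 was higher at 4 and lower at 6 by edgeR, and 16 missed the threshold. DESeq2 called 2 higher and 3 lower, without the rises at Bhlhe40 and Sphk1 and the falls at Snai2, Col3a1 and Acta2. With 48 h replicate 1 left out, 5 target genes rose and 6 fell in RNA, and 6 rose and 5 fell among the latency genes. The counts of each list are to be read against the 31.8% of all genes called in RNA and 8.42% in H3K4me3, since the lists were chosen with earlier results known.

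**Figure D5:**
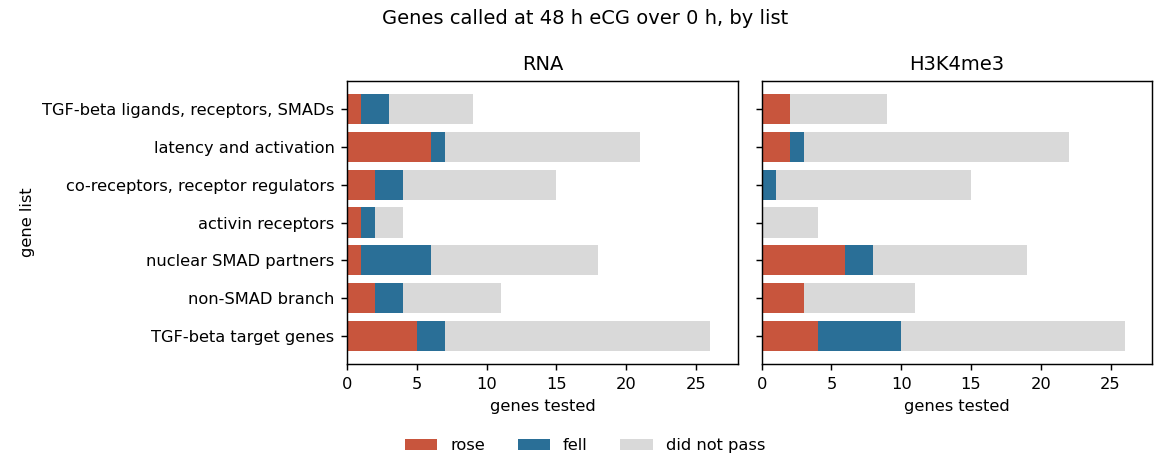
Genes that rose, fell or did not pass at 48 h over 0 h (horizontal axis, number of genes tested) in each list, for RNA (left) and H3K4me3 (right). In RNA 6 of 21 latency and activation genes rose (3, 3 and 2 without 0 h replicate 1, 2 or 3) and 5 of 18 nuclear SMAD partners fell. Over all genes tested in RNA, 16.0% were called higher and 15.8% lower. In H3K4me3 6 of 19 nuclear SMAD partners rose by edgeR and 2 by DESeq2, against 6.35% of all genes called higher by edgeR.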

How the data were processed

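The authors deposited 1 table per assay, of whole-number counts that were not normalized, with a row for each Entrez gene ID. Per the submitters' processing notes, FastQC 0.11.5, Picard, STAR, kallisto and sleuth are listed for RNA, and Trimmomatic, Bowtie2 2.2.9, MACS2 2.2 and ChIPseeker 1.18.0 for H3K4me3, with build mm10. The sources used here give neither their roles nor the counting program, its use of strand or the window counted per gene in H3K4me3. H3K4me3 columns were matched to their group by time point, and their replicate numbers are those in the column names. Reads of genes that overlap (long non-coding RNAs at Tgfb2, Tgfbr1, Tgfbr2, Smad3 and Smad7) may therefore not be told apart. The input library was not used here.

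Symbols and positions came from RefSeq's gene table of GRCm38.p6, which named 24742 of 24809 RNA IDs and 24472 of 24541 H3K4me3 IDs. Each assay was fitted on its whole table with edgeR 4.0.16 (R 4.3.3), TMM scaling, filterByExpr, and the quasi-likelihood test, with p-values adjusted by Benjamini-Hochberg over all genes tested; calls are those with an adjusted p under 0.05. Levels are CPM computed here; intervals come from the test's standard error. The fits were also run on simulated counts with few changed genes, a simpler setting than these data, and no statement here rests on that run. Alternatives were other scalings, DESeq2 1.42.0, other filters, a replicate block and each library left out. Ratios used a pseudocount of 0.5. Replicates differed by more than sampling noise (chi-square per degree of freedom 5.41 to 40.8 in RNA, 1.69 and 4.00 in H3K4me3). The series describes replicates as biological.

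The 9 genes and the lists were chosen with earlier results of these data known. Genes of a list were named by rule as the 2 largest rises and 2 largest falls in RNA and the largest of each in H3K4me3, taken from the called genes averaging 5 CPM or more (RNA); others named are described as values, or as chosen after their values were seen.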

Additional observations from a re-analysis of the deposited data

How the results depend on the processing

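Tgfbr1 and Smad7 kept their RNA direction and call in all 12 alternatives, and Tgfbr1 its H3K4me3 direction in all 10. Calls of the other members that were lost are named beside them. Leaving out 1 library in turn, RNA calls numbered 2882 to 5345, against 4585 with all libraries (lower calls 1228 to 2648), with 1 to 2 members rising and 1 to 2 falling. H3K4me3 calls numbered 282 to 2764, against 2062 (higher 159 to 2070, lower 123 to 694), with 0 to 3 members rising and 0 to 1 falling; these fits leave 1 arm with 1 library, assumed to vary like the other group. Leaving out 48 h replicate 1 gave 1181 H3K4me3 calls, 0 h replicate 1 gave 282, and 0 h replicate 2 gave 1252. In RNA, leaving out 0 h replicate 2 gave 2956 calls and 0 h replicate 3 gave 2882. The cause was not tested.

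With library size alone, 26.8% of RNA calls were higher (50.2% with TMM), with 4222 lower calls and 4 members falling, and in H3K4me3 52.3% (75.4% with TMM), with 945 higher and 862 lower calls and 2 members falling. DESeq2 size factors left 1 member falling in RNA. The DESeq2 test made 865 H3K4me3 calls, 611 higher and 254 lower, with 1 member rising, and a minimum mean of 5 CPM 898 lower calls with 1 member falling.

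With the replicate number as a block, RNA calls numbered 3312, and H3K4me3 calls 1280, of which 908 were higher, with 1 member rising. Deviations from the group mean correlated at -0.22, -0.15 and -0.17 for same-numbered RNA libraries. No RNA library correlated best with its own number. In H3K4me3 the value was -0.05, but 2 libraries per group deviate as mirror images, so it cannot judge pairing. With 3 per group the RNA deviations also depend on each other. Whether the numbers pair the libraries cannot be decided from these values.

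Signs turned for uncalled values near 0. In RNA, Tgfbr2 was at -0.024 and Smad2 at -0.16 with library size alone, Smad2 at -0.00067 with a minimum of 5 CPM, and leaving out libraries gave -0.42 to 0.19 for Tgfb2, -0.14 to 0.33 for Tgfbr2 and -0.035 to 0.091 for Smad2. In H3K4me3, Smad4 was at -0.0054 with DESeq2 size factors, -0.049 with library size alone, -0.0059 with DESeq2, -0.016 with no filter and -0.043 with a minimum of 5 CPM; leaving out libraries gave -0.14 to 0.13 for Smad4, -0.0026 to 0.11 for Smad3 and -0.074 to 0.18 for Tgfbr2. The Tgfb2 to Tgfb3 ratio ranged from -0.16 to 0.25. Of 312 list counts recomputed in RNA, 264 stayed within 1.5 times and 48 moved more. Tgfb2 had the fewest RNA counts of the 9 genes, 69 to 199 per library, and whether depth limits its precision was not tested.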
